A study of Mus musculus with 7 samples.

Results

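This account covers the tumour necrosis factor (TNF) superfamily and the NF-kB pathway in liver endothelial cells with and without c-Maf, a transcription factor encoded by Maf. Members were taken by symbol: Tnf, the Tnfsf ligands, the Tnfrsf receptors but for one gene left out by the rule, the Tnfaip, Traf and Tnip genes, the NF-kB subunits and their inhibitors, Bcl3 and Birc3. Of 52636 genes in the count table, 56 matched by name and 43 of these had at least 50 reads over all libraries. They comprised 5 ligands, 14 receptors, 7 TRAF adaptors, 5 NF-kB subunits, 9 feedback genes and 3 other TNF-induced proteins. The member with the fewest reads was Tnfrsf13b with 202, and Tnfrsf11b and Tnfrsf9, with 43 each, lay just under the minimum.

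Polyadenylated RNA from mouse liver endothelium was sequenced in 3 control libraries and 4 libraries of c-Maf knockout (KO) cells, isolated by flow sorting. The series' design text calls the controls wild type. None of the sources used here gives the deleted part of Maf, the driver of the deletion, or the age, sex and number of the mice. No label says that libraries stand for separate animals, so the spread between them may be technical. By the lane codes in the library names, control 3 and KO 3 were on lane 4 and all other libraries on lane 5. A difference of KO 3 from the other KO libraries thus cannot be told apart from lane. Library totals ran from 24772716 to 32960007 counts, and 3 counts, the limit taken for a count of 0, equal 0.0873 to 0.132 CPM. CPM is the count of a gene scaled to a common library size, here with factors from the trimmed mean of M-values (TMM). Maf stood at 1664 to 2147 CPM in controls and 28.9 to 158.9 CPM in KO libraries. All 7 endothelial markers examined were present in every library, but 6 of them fell in the KO: Pecam1 1.55-fold, Erg 1.65-fold, Kdr 1.81-fold, Tek 2.05-fold, and the sinusoidal genes Lyve1 4.05-fold and Stab2 9.20-fold. Cdh5 was not called, at 1953 CPM in controls and 1503 CPM in the KO (edgeR adjusted p = 0.0935). Summed, the 7 markers stood at 16000 to 18220 CPM in controls and 5815 to 8876 CPM in the KO. In bulk RNA, fewer cells of a type and less RNA per cell cannot be told apart.

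TNF superfamily ligands are mostly membrane-bound trimers that cluster their receptors on a neighbouring cell. Receptors with a death domain can start apoptosis, and most receptors recruit TRAF adaptors that lead to an IkB kinase. That kinase marks IkB proteins for destruction and frees dimers of NF-kB subunits to enter the nucleus. NF-kB then induces its own inhibitors, among them Nfkbia and Tnfaip3, which end the response. In endothelium the pathway is known for turning on adhesion molecules and chemokines during inflammation, and liver sinusoidal cells meet gut-derived stimuli continuously.

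In the KO, 2 ligand genes rose strongly, 5 weakly expressed receptors rose, and 3 receptors and 2 ligands with higher levels fell. Tnf was 9.96-fold and Tnfsf9 6.50-fold higher, whereas Tnfsf10, Tnfsf12, Tnfrsf1a and Tnfrsf14 were 1.495- to 1.66-fold lower and Tnfrsf26 2.15-fold lower. NF-kB subunit genes other than Rel did not pass the test, and feedback genes were split. By edgeR's quasi-likelihood test with Benjamini-Hochberg adjustment over all 15512 genes tested, 13 of the 43 members rose and 9 fell at an adjusted p under 0.05. Of all genes tested 23% rose and 22.2% fell. The share of members called, 51.2%, was thus near the 45.2% of all genes, and the median log2 fold change was 0.163 over members and 0.0433 over all genes. Groups did not overlap in 24 members, 16 with every KO library above and 8 below, where 50.3% of all genes did not overlap. At least 2-fold rises numbered 8 (10.5% of all genes) and falls of that size 2 (5.95%). Scaling weighed on the balance: with upper-quartile factors 16 members rose and 7 fell, and with library totals alone 22 rose and 5 fell. The balance over all genes moved too. On the TMM scale 3561 genes rose and 3448 fell. With upper-quartile factors 4749 rose and 2738 fell, and with library totals 6373 rose and 1976 fell. Without control 2 only 5 members fell, but that fit called 31% of all genes, with 2584 of 15994 falling. Library totals move the median log2 fold change of all genes to 0.308, so changes given here are relative to the TMM scale.

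**Figure D1:**
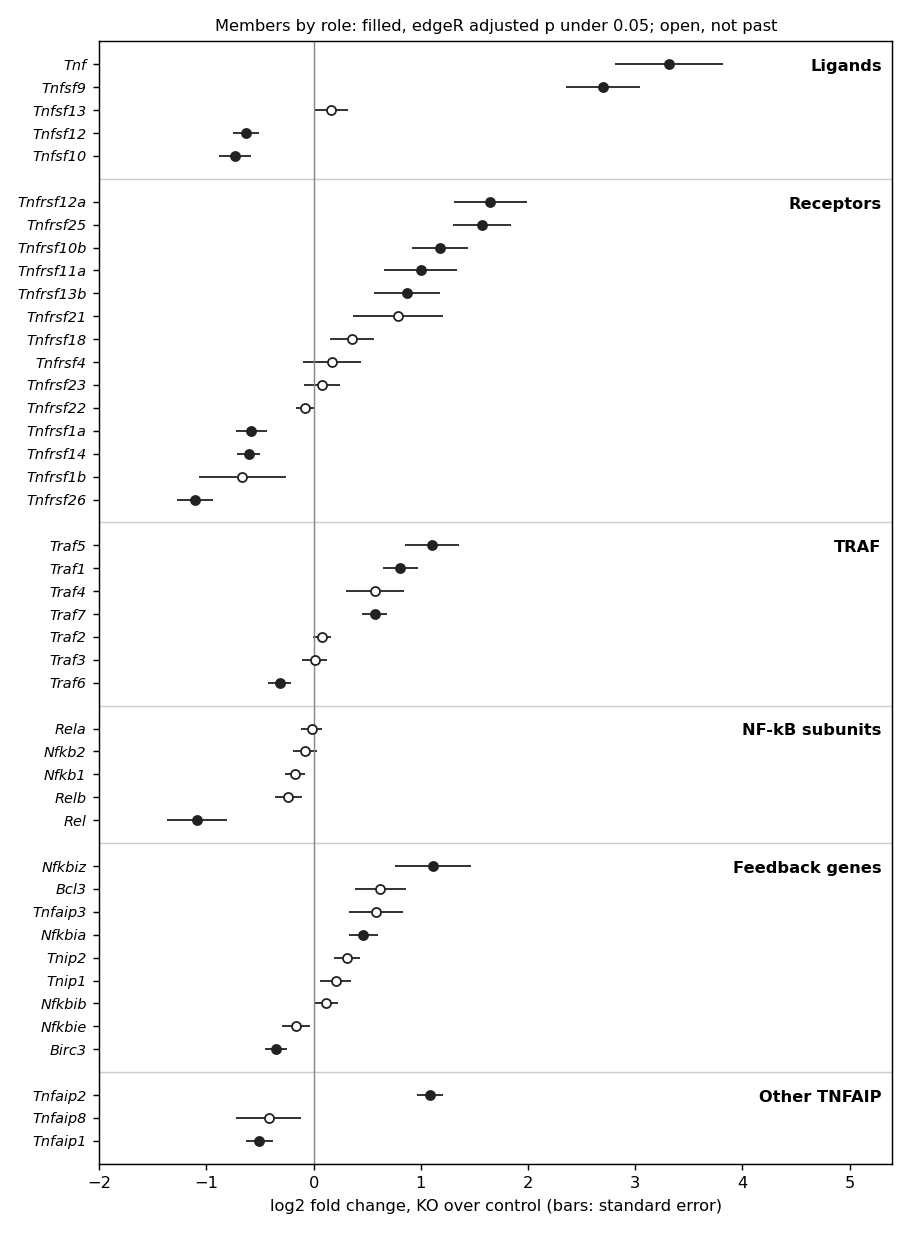
Log2 fold change of each of the 43 members, KO over control, with bars of 1 standard error, grouped by role (x axis, log2 units). Filled points passed edgeR's test at an adjusted p under 0.05 and open points did not. Tnf (3.32) and Tnfsf9 (2.701) lie farthest to the right, and Tnfrsf26 (-1.11) and Rel (-1.09) farthest to the left.

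Both ligand genes that rose had low levels in controls. Tnf, the inflammatory cytokine that names the family (chr17:35199381-35202007, minus strand, GRCm38), was measured at 5.90, 5.29 and 4.34 CPM in the 3 controls in turn. In KO 1 to 4 it reached 101, 45.3, 20.5 and 40.1 CPM. Each KO library lay above each control, and the KO libraries differed among themselves by more than the controls did. Its log2 fold change of 3.32 (SE 0.506) had an adjusted p of 0.000876. It was 2.76 without KO 1, the highest library (adjusted p = 0.000186), and 2.54 without KO 1 and KO 2 (adjusted p = 0.000697).

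Tnfsf9 encodes the ligand of the lymphocyte co-stimulatory receptor Tnfrsf9. Its level was 1.02, 1.54 and 1.53 CPM in the controls and 12.4, 11.2, 6.29 and 5.64 CPM in KO 1 to 4. No KO library came near the control range (log2 fold change 2.701, SE 0.345, adjusted p = 0.000341). Its receptor gene Tnfrsf9 was among the genes under the read minimum, with 9 reads over the controls and 34 over the KO libraries.

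The ligands that fell were those with the most transcript per length in controls. Tnfsf10, or TRAIL, which can trigger death receptors, had 251, 258 and 209 CPM in controls and 135, 145, 180 and 116 CPM in KO 1 to 4. All KO libraries were below the lowest control (log2 fold change -0.73, SE 0.150, adjusted p = 0.0041). Tnfsf12, or TWEAK, fell 1.55-fold from 44.4 ± 5.76 CPM (SD, n = 3) to 28.6 ± 3.31 CPM (SD, n = 4; edgeR adjusted p = 0.00304). Tnfsf13, or APRIL, a survival factor of B cells, was not called at 5.24 ± 0.916 and 5.87 ± 0.32 CPM (edgeR adjusted p = 0.432, n = 3 and 4). The endothelial markers Pecam1, Erg and Kdr, as given above, fell 1.55- to 1.81-fold, and their part in the falls of Tnfsf10 and Tnfsf12, and of Tnfrsf1a and Tnfrsf14 described further on, was not tested. Tnfsf12 and Tnfsf13 are neighbours on chromosome 11, and 48.25% and 60.05% of their exon bases are shared with the readthrough gene Tnfsfm13, so reads could be split between them.

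Per length the order of the ligands differed between the genotypes. In TPM, the length-scaled level computed with GENCODE M21 exon lengths, the control means were 153.6 for Tnfsf10, 99.0 for Tnfsf12, 10.8 for Tnfsf13, 10.7 for Tnf and 3.595 for Tnfsf9. The KO means were 120.5 for Tnf, 104.5 for Tnfsf10, 72.2 for Tnfsf12, 26.15 for Tnfsf9 and 13.7 for Tnfsf13. Tnf at 236.5, 101.7, 48.4 and 95.5 TPM and Tnfsf10 at 98.4, 101.4, 132.5 and 85.9 TPM in KO 1 to 4 overlapped. Within these libraries Tnf over Tnfsf10 was 2.40, 1.00, 0.365 and 1.11, so their order differed between KO libraries. This ratio carries no test. Tnf was under Tnfsf10 in every control.

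**Figure D2:**
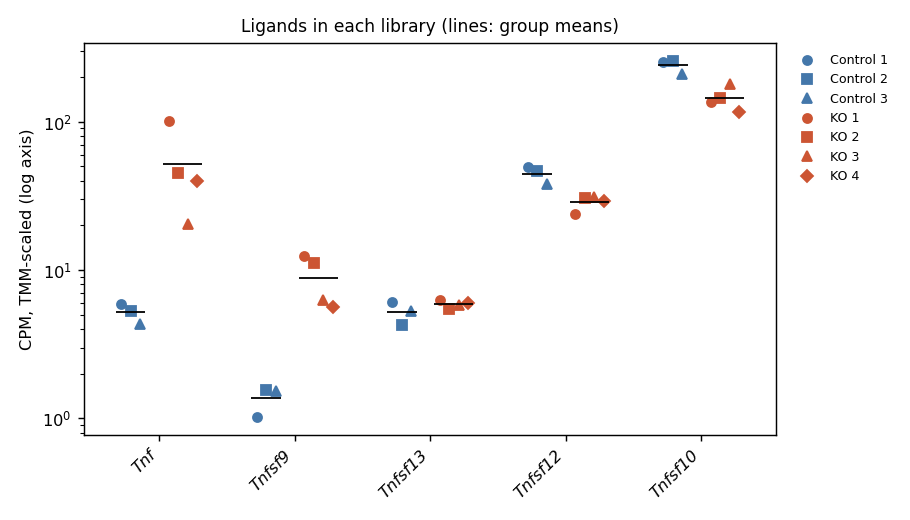
CPM (log axis) of the 5 ligand genes in each library, controls in blue and KO in red, with lines at the group means. Tnf and Tnfsf9 sit higher in all 4 KO libraries than in all 3 controls, Tnfsf12 and Tnfsf10 lower, and Tnfsf13 overlaps.

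The other 6 ligand genes of the name pattern had almost no reads. Tnfsf11, or RANKL, had 0 reads in all 7 libraries, which allows at most the 3-count limit given above in each. Tnfsf4, Tnfsf18, Tnfsf8, Tnfsf15 and Tnfsf14 had 1, 1, 2, 5 and 7 reads in all.

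Tnf is best known from macrophages and lymphocytes, whose markers were measured beside it. The sum of 10 macrophage markers was 86.3 to 299.7 CPM in controls and 55.2 to 197 CPM in the KO, with no marker at 0. The B cell list summed to 2.33 to 4.44 and 1.40 to 2.69 CPM, and the T and NK cell list to 0.482 to 0.837 and 0.147 to 0.586 CPM, with Ncr1 at 0 throughout. Neutrophil and monocyte markers summed to 1.20 to 5.09 and 1.03 to 4.21 CPM. None of these sums was higher in the KO than the highest control. Single markers differed: Marco was at 34.7 CPM in KO 2 and 1.20 to 4.37 CPM in controls, and was not called (edgeR adjusted p = 0.292). Of the 10 macrophage markers 0 rose and 1 fell, C1qb by 3.68-fold. Such sums do not show which cells held the Tnf reads, and the source of Tnf was not tested.

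Other transcripts also differed between the groups. Immediate-early genes, which cell isolation itself can induce, summed to 9265 to 11950 CPM in controls and to 27350, 22270, 13570 and 16300 CPM in KO 1 to 4. Of 15 such genes 8 rose, or 53.3%, where 23% of all genes rose, and their median log2 fold change was 0.99. Among them were Nr4a1 5.87-fold, Atf3 6.62-fold, Btg2 3.51-fold, Egr1 3.20-fold and Ier2 2.97-fold. Tnf had the same order of KO libraries, with KO 1 highest and KO 3 lowest. Among the 13 members that rose, 10 were highest in KO 1 and 8 lowest in KO 3, against 41.8% and 54.1% of all 3561 genes that rose. Hepatocyte markers summed to 272.6 to 284.4 CPM in controls and 321.6 to 1265 in the KO, and platelet markers to 16.5 to 20.4 and 29.0 to 42.5 CPM. Their part in the changes of members was not tested.

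Receptor genes changed in both directions, the rises at low levels and the falls at higher ones. Of 14 receptors 5 rose, 3 fell and 6 did not pass, or 57.1% called against 45.2% of all genes. Tnfrsf12a, the TWEAK receptor, had 2.40, 2.54 and 2.06 CPM in controls and 11.0, 8.82, 4.02 and 5.55 CPM in KO 1 to 4. The groups were apart, with KO 1 and KO 2 above KO 3 and KO 4 (log2 fold change 1.65, SE 0.341, adjusted p = 0.00425). Its ligand gene Tnfsf12, as given above, fell.

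Tnfrsf25, a death-domain receptor of lymphocytes, rose from 2.44, 1.75 and 2.15 CPM to 8.45, 5.34, 4.16 and 7.20 CPM. The groups were apart, with KO 1 and KO 4 highest. Its log2 fold change was 1.57 (SE 0.273, adjusted p = 0.00174), while the gene of its ligand, Tnfsf15, had 5 reads in all. Tnfrsf10b, the death receptor for TRAIL in mice, had 3.17, 3.29 and 3.38 CPM in controls. KO 1 to 4 held 10.9, 6.15, 5.03 and 7.64 CPM, all above the controls (log2 fold change 1.18, SE 0.260, adjusted p = 0.00591). These receptors rose while the ligand genes Tnfsf12 and Tnfsf10 fell.

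The other rises passed narrowly, and their calls were lost when any of several single libraries was left out. Their log2 fold changes stayed positive in these fits, at 0.725 to 1.16 for Tnfrsf11a and 0.712 to 1.00 for Tnfrsf13b. With all libraries they were 0.998 and 0.872. Tnfrsf11a, or RANK, rose 2.00-fold from 2.74 ± 0.955 to 5.46 ± 2.00 CPM (SD, n = 3 and 4; edgeR adjusted p = 0.0408). Without any 1 library other than KO 3 its adjusted p was 0.0531 to 0.122. Tnfrsf13b, or TACI, a receptor of APRIL found on B cells, rose 1.83-fold from 0.654 ± 0.127 to 1.19 ± 0.321 CPM (SD, n = 3 and 4; edgeR adjusted p = 0.0449). Its adjusted p was 0.0712 to 0.143 without control 1, 2 or 3, KO 3 or KO 4.

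**Figure D3:**
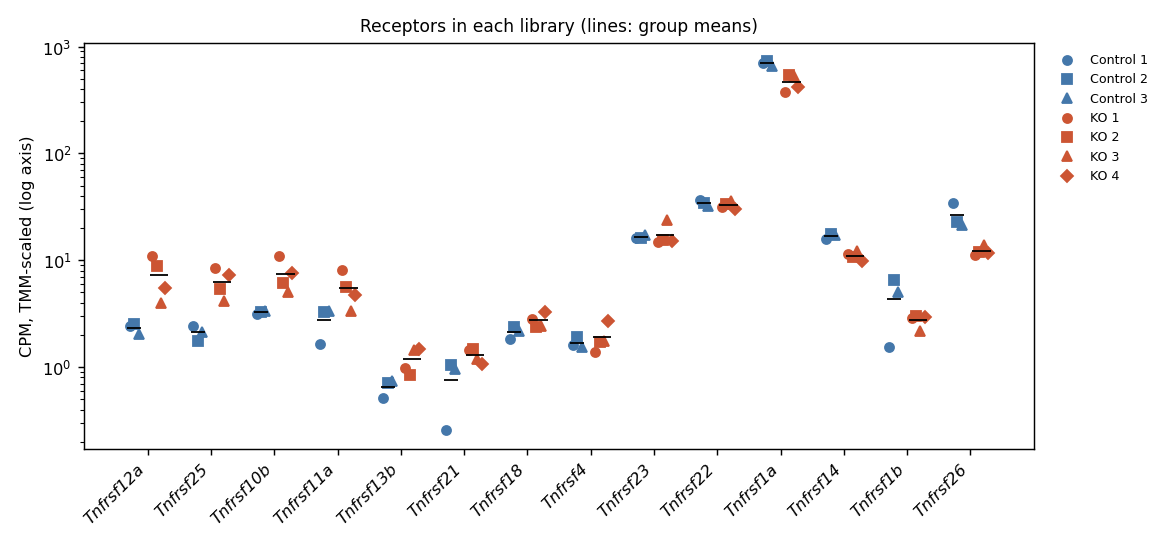
CPM (log axis) of the 14 receptor genes in each library, controls in blue and KO in red, with lines at the group means, ordered by fold change. Tnfrsf12a, Tnfrsf25 and Tnfrsf10b stand under 4 CPM in controls and higher in every KO library, while Tnfrsf1a, the most abundant, lies lower in every KO library.

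Tnfrsf1a, the widely expressed TNF receptor with a death domain, was the receptor with the most transcript per length, at 911 TPM in controls and 687 TPM in the KO. It stood at 709, 730.5 and 653.5 CPM in controls and 379, 540.4, 531 and 415 CPM in KO 1 to 4. The KO libraries were all lower (log2 fold change -0.58, SE 0.147, adjusted p = 0.0113), but the call was lost with library totals (log2 fold change -0.32, adjusted p = 0.0573). Tnfrsf1b, the TNF receptor that lacks a death domain, had 1.53, 6.54 and 5.04 CPM in controls and 2.87, 2.99, 2.18 and 2.95 CPM in KO 1 to 4. It did not pass (adjusted p = 0.203), with control 1 under every KO library, and passed without control 1 (log2 fold change -1.08, adjusted p = 0.00628).

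Tnfrsf14, the receptor of the ligand LIGHT, fell 1.52-fold from 16.8 ± 0.909 to 11.0 ± 0.995 CPM (SD, n = 3 and 4; edgeR adjusted p = 0.00215). Tnfrsf26 lies in a row of mouse receptor genes on chromosome 7 that also holds the TRAIL decoy receptors Tnfrsf22 and Tnfrsf23. It had 34.7, 22.6 and 21.4 CPM in controls and 11.2, 11.9, 13.8 and 11.8 CPM in KO 1 to 4. No library of the KO reached the control range (log2 fold change -1.11, SE 0.170, adjusted p = 0.000918). Its neighbours did not pass, Tnfrsf22 at 34.5 and 32.7 CPM (adjusted p = 0.510) and Tnfrsf23 at 16.4 and 17.4 CPM (adjusted p = 0.730). The direction of both small differences depended on scaling or on single libraries. Tnfrsf22 and Tnfrsf23 share 17.3% and 18.0% of their 50-base transcript windows with each other, so reads between them are uncertain.

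The remaining receptors, all under 4 CPM on average, did not pass. Tnfrsf21, a death-domain receptor, had means of 0.754 and 1.29 CPM (adjusted p = 0.151). Tnfrsf4 and Tnfrsf18, co-stimulatory receptors of T cells, had 1.68 and 1.89 CPM (adjusted p = 0.630) and 2.13 and 2.73 CPM (adjusted p = 0.180). An antisense gene covers 27.2% of the exon bases of Tnfrsf18 and had more reads, 591 against 505. Of the receptors under the read minimum, Tnfrsf11b, or osteoprotegerin, was at 0.109, 0.125 and 1.23 CPM in controls 1 to 3 and at 0 to 0.146 CPM in the KO. Stellate cell and fibroblast markers also summed highest in control 3, at 178 CPM against 23.2 and 52.5 CPM, and stood at 11.4 to 49.5 CPM in the KO. Of 9 such markers 5 fell, among them Des 3.68-fold and Rgs5 4.17-fold, and their part in the values of Tnfrsf11b was not tested. Tnfrsf8, Tnfrsf13c and Tnfrsf17 had 1, 20 and 11 reads in all.

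TRAF genes, the adaptors under these receptors, held 3 rises and 1 fall among 7, or 57.1% called against 45.2% of all genes. Traf7, which carries WD repeats unlike the other family members, had the most transcript per length, 103 TPM in controls and 173 TPM in the KO. It rose from 182.5, 176 and 179 CPM to 303, 250.4, 226 and 283 CPM, with the groups apart (log2 fold change 0.57, SE 0.116, adjusted p = 0.00409). Traf5 had 4.33, 3.29 and 2.15 CPM in controls and 6.97, 5.57, 7.19 and 8.38 CPM in KO 1 to 4. The lowest KO library was above the highest control (log2 fold change 1.10, SE 0.248, adjusted p = 0.00648). Traf1, an adaptor that NF-kB itself induces, rose 1.75-fold from 7.51 ± 1.38 to 13.2 ± 1.75 CPM (SD, n = 3 and 4; edgeR adjusted p = 0.00376).

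Traf6, of the interleukin 1, Toll-like and RANK receptors, fell 1.25-fold from 50.1 ± 5.01 to 40.2 ± 4.09 CPM (SD, n = 3 and 4; edgeR adjusted p = 0.035). That call was lost without control 2, control 3, KO 1, KO 2 or KO 4, at adjusted p of 0.0687 to 0.129, and with library totals (adjusted p = 0.643). Traf2 was not called at 33.4 and 35.3 CPM (adjusted p = 0.446), nor was Traf4 at 2.32 and 3.47 CPM (adjusted p = 0.107). Traf3, which restrains the noncanonical NF-kB pathway, had 39.9 and 40.1 CPM (adjusted p = 0.957), and the sign of its difference changed with the scaling.

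Of the 5 NF-kB subunit genes 1 fell and 4 did not pass, or 20% called against 45.2% of all genes. Rel, the subunit c-Rel best known from lymphocytes, had 46.9, 114 and 127 CPM in controls and 52.0, 44.3, 42.7 and 41.9 CPM in KO 1 to 4. Control 1 lay within the KO range, so the groups overlapped and the call rested on the other 2 controls. Its log2 fold change of -1.09 (SE 0.278) had an adjusted p of 0.0119, and it was -1.42 without control 1 (adjusted p = 0.000116). Without control 2 the adjusted p was 0.0504, and in the fit with a replicate block it was 0.0542.

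Rela, the main activating subunit, had 182, 180.0 and 172 CPM in controls and 187.6, 187.7, 171.0 and 156 CPM in KO 1 to 4. Nfkb1, its usual partner, had 242, 247 and 236 CPM in controls and 201, 223, 231 and 200.1 CPM in KO 1 to 4, the KO libraries all lower but by little (adjusted p = 0.149). Without KO 3 it passed at a log2 fold change of -0.23 (adjusted p = 0.0479). Relb, of the noncanonical arm, had 81.4, 92.5 and 71.5 CPM in controls and 75.3, 79.8, 63.5 and 59.5 CPM in KO 1 to 4. Its partner Nfkb2 had 104, 112 and 91.3 CPM in controls and 110.2, 103, 88.7 and 86.1 CPM in KO 1 to 4. The adjusted p was 0.878 for Rela, 0.158 for Relb and 0.593 for Nfkb2. With library totals all of Nfkb1, Nfkb2, Rela and Relb turned to positive log2 fold changes, 0.0881, 0.188, 0.244 and 0.0317, of which Rela's passed (adjusted p = 0.0385).

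**Figure D4:**
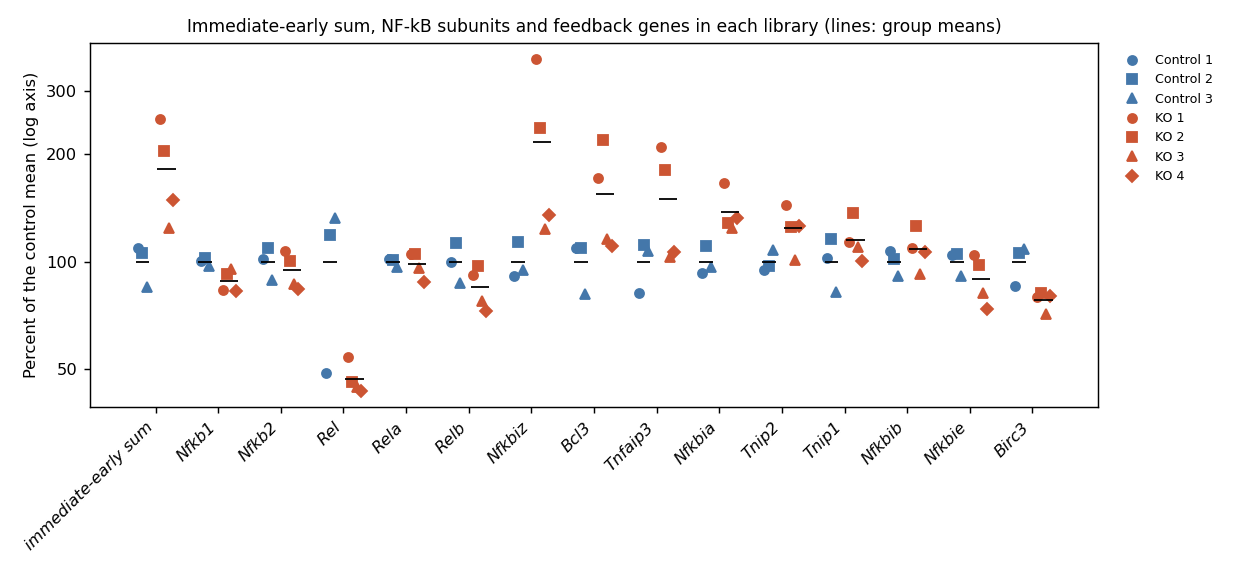
Level in each library as percent of the control mean (log axis) for the sum of 15 immediate-early genes, the 5 NF-kB subunit genes and the 9 feedback genes, controls in blue and KO in red, with lines at the group means. KO 1 and KO 2 stand highest for the immediate-early sum, Nfkbiz, Bcl3 and Tnfaip3, while the subunits other than Rel stay near the control mean.

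Of 9 feedback genes 2 rose, 1 fell and 6 did not pass, or 33.3% called against 45.2% of all genes. Nfkbia, the IkB protein that holds NF-kB in the cytoplasm, stood at 452, 537 and 469 CPM in controls and 809, 624, 603 and 643 CPM in KO 1 to 4. All KO libraries were higher (log2 fold change 0.46, SE 0.137, adjusted p = 0.022). Nfkbiz, a nuclear IkB protein that steers NF-kB target choice, had 96.8, 121 and 101 CPM in controls and 391.5, 252, 131 and 143 CPM in KO 1 to 4. KO 3 and KO 4 were only just above the controls (log2 fold change 1.11, SE 0.353, adjusted p = 0.0297). Nfkbia did not pass without control 1 (adjusted p = 0.0831) or control 3 (0.0768). Nfkbiz did not pass without control 1, 2 or 3 or KO 2 (0.0564 to 0.0868), and without KO 1 and KO 2 together its log2 fold change was 0.37 (adjusted p = 0.0619).

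Tnfaip3, the ubiquitin-editing enzyme that shuts off the IkB kinase, had 46.4, 63.0 and 60.6 CPM in controls and 118, 102, 58.4 and 60.3 CPM in KO 1 to 4. Only KO 1 and KO 2 stood above the controls, and the gene did not pass (adjusted p = 0.0903). Bcl3, another nuclear IkB protein, had 33.1, 32.98 and 24.6 CPM in controls and 51.7, 66.4, 34.9 and 33.5 CPM in KO 1 to 4. Its groups were apart by a narrow margin, and it did not pass (adjusted p = 0.0594). Without KO 3 both passed, Tnfaip3 at adjusted p = 0.0344 and Bcl3 at 0.0325, and without KO 4 Bcl3 passed at 0.0337. Birc3, a ubiquitin ligase of the TNF receptor complex that blocks apoptosis, had 52.5, 64.8 and 66.8 CPM in controls. KO 1 to 4 held 49.0, 50.1, 43.9 and 49.1 CPM, all lower (log2 fold change -0.35, SE 0.1, adjusted p = 0.0187). That call was lost without control 2 (adjusted p = 0.0775) or control 3 (0.0745) and with library totals (0.520).

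The other inhibitors changed less. Tnip1 and Tnip2, binding partners of the Tnfaip3 protein, had 124, 140 and 99.4 CPM and 50.8, 52.0 and 57.7 CPM in controls. Tnip1 was at 137, 165, 133.5 and 122 CPM and Tnip2 at 77.1, 66.9, 54.2 and 67.6 CPM in KO 1 to 4. Both overlapped between the groups (adjusted p = 0.259 and 0.0567), and Tnip2 passed without KO 3 (adjusted p = 0.00748). The IkB genes Nfkbib, at 43.9, 41.8 and 37.4 CPM against 44.7, 51.5, 37.9 and 43.6 CPM, and Nfkbie, at 32.6, 32.8 and 28.5 CPM against 32.8, 30.6, 25.5 and 23.1 CPM, did not pass (adjusted p = 0.431 and 0.335). Tnip3 had 10 reads in all.

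Counts over the feedback genes moved with the libraries used. Without KO 3 there were 5 rises, and with library totals 7. All genes moved as well. Without KO 3, 3769 of 15230 genes tested rose, and with library totals 6373 of 15512, against 3561 of 15512 in the main fit. These 2 fits called 50.6% and 53.8% of all genes. With KO 1 and KO 2, the libraries with the highest immediate-early sums, left out, fewer KO libraries remained. That fit called 30% of all genes, against 45.2% with all libraries. Nfkbia, Nfkbiz and Birc3 then had adjusted p of 0.0938, 0.0619 and 0.0569. Their log2 fold changes were 0.36, 0.37 and -0.40, against 0.46, 1.11 and -0.35 with all libraries. Both ligand rises and both ligand falls were still called, with Tnf at 2.54 against 3.32. KO 1 and KO 2 were also the KO libraries with the most Nfkbiz and Tnf. Leaving them out therefore had to lower the fold changes of these genes. The part of immediate-early expression in these calls was not tested.

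Promoter sequence was examined for the feedback loop in which NF-kB drives the genes of its own inhibitors and subunits. RefSeq starts on GRCm38.p6 were found for 34 of the 43 members, and the 250 bases before each start were searched on both strands for the kappaB consensus. Some members have several starts, which gave 38 promoters. Nfkbiz, Nfkb1, Relb, Tnfsf9, Tnfsf12, Tnfrsf10b, Tnfrsf22, Tnfrsf26 and Tnfaip8 had no start and were not searched. The consensus occurred in 9 of the 38, belonging to 7 members (Nfkbia, Tnfaip3, Tnip1, Nfkbie, Rel, Nfkb2 and Traf3), and in 1281 of all 32851 promoters, or 3.90%. Of these 7, Nfkbia rose, Rel fell and 5 did not pass. Capitals in the sequences mark matches to the consensus. Nfkbia, Tnfaip3 and Rel are shown because they carry matches and moved differently, and Tnf because it rose most.
Nfkbia, chr12:55492648-55492897, minus strand: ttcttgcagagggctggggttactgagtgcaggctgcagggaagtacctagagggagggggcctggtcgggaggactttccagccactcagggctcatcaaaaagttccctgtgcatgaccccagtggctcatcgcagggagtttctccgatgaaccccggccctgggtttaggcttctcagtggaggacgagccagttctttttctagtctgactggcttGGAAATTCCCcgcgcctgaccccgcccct
Tnfaip3, chr10:19015411-19015660, minus strand: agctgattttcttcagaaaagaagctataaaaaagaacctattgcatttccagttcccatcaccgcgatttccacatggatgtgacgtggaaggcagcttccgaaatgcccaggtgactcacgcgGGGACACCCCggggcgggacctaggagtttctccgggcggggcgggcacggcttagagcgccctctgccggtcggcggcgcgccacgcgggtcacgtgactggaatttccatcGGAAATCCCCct
Rel, chr11:23770970-23771219, minus strand: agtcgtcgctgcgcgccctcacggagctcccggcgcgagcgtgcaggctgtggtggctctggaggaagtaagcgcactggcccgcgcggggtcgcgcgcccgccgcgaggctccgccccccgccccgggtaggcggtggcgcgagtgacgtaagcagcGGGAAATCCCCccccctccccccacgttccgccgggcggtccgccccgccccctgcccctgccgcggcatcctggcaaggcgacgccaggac
Tnf, chr17:35202008-35202257, minus strand: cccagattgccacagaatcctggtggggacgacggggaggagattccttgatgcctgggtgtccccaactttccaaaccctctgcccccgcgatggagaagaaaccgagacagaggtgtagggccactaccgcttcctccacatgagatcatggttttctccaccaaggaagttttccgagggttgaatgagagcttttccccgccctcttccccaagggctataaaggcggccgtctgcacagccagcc
Nfkbia has its match from -29 to -20, where -1 is the last base before the start. Tnfaip3 has matches from -125 to -116 and from -12 to -3, and Rel has 3 overlapping ones within -92 to -82. The Tnf window holds no match, which says only that these letters are not in it. The letters TGCTGA, the outer part of Maf recognition elements, occurred on either strand in 3 of the 38 promoters, those of Tnfaip3, Tnfrsf13b and Traf7, and in 16.1% of all promoters. The AP-1 site TGACTCA, on either strand, was found in 3 of the 38, those of Tnfaip3, Tnfsf13 and Nfkbie, and in 4.46% of all promoters.

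The other TNF-induced proteins, named for their discovery and not for a shared function, went both ways. Tnfaip2, which promotes thin membrane tubes between cells, had 14.6, 13.2 and 12.1 CPM in controls and 30.5, 25.04, 31.9 and 25.6 CPM in KO 1 to 4. The KO libraries were close together and far from the controls (log2 fold change 1.09, SE 0.124, adjusted p = 0.000182). Tnfaip1, a substrate adaptor of a ubiquitin ligase, fell 1.42-fold from 591 ± 53.1 to 416 ± 48.3 CPM (SD, n = 3 and 4; edgeR adjusted p = 0.00958). Its adjusted p was 0.0539 without control 2 and 0.0727 with library totals. Tnfaip8 was not called at 2.07 and 1.55 CPM (adjusted p = 0.284), and Tnfaip6 had 10 reads in all.

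Superfamily members outside the name pattern also held rises and falls. Of 15 listed genes 8 could be tested, of which 2 rose and 3 fell, or 62.5% called against 45.2% of all genes, with a median log2 fold change of -0.07. Eda2r, a receptor of ectodysplasin, rose 3.59-fold from 10.4 ± 0.868 to 37.2 ± 7.72 CPM, and Relt, a receptor-like member, 2.83-fold from 1.25 ± 0.145 to 3.54 ± 1.31 CPM (SD, n = 3 and 4). The death receptor gene Fas fell 1.58-fold from 103 ± 8.14 to 65.3 ± 7.18 CPM, Cd27 1.72-fold to 6.53 ± 1.14 CPM, and the lymphotoxin receptor gene Ltbr 1.27-fold to 196 ± 22.6 CPM. For these 5 genes edgeR's adjusted p was between 5.53e-05 and 0.0272. The Ltbr call was lost with library totals (adjusted p = 0.455) and without any 1 library other than KO 2 or KO 3 (0.0516 to 0.0939). Cd40 was not called at 5.14 and 5.33 CPM (adjusted p = 0.840).

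Genes between the receptors and NF-kB fell more often than they rose on the TMM scale. Of 24 such genes 2 rose, 8 fell and 14 did not pass, 41.7% called against 45.2% of all genes. The apoptosis inhibitor gene Cflar fell 1.56-fold from 270.0 ± 20.8 to 173 ± 13.1 CPM, Fadd, the adaptor of death receptors, 1.54-fold to 14.5 ± 2.50 CPM, and Ikbkg, a regulatory subunit of the IkB kinase, 1.29-fold to 36.0 ± 2.46 CPM (SD, n = 3 and 4). Ripk3, the kinase of necroptosis, rose 1.63-fold from 25.7 ± 0.847 to 41.9 ± 7.51 CPM and Tradd, the first adaptor of Tnfrsf1a, 1.32-fold to 32.7 ± 1.43 CPM. The kinase subunit genes Chuk and Ikbkb did not pass (adjusted p = 0.112 and 0.318). Over both lists together 4 genes rose and 11 fell, but with library totals 10 rose and 5 fell. The fall of Ikbkg was no longer called with library totals (adjusted p = 0.295). Falls numbered 6 without control 2 and 7 without control 1 or KO 4. Of all genes, the fits without control 2, control 1 and KO 4 called 31%, 37.7% and 36.8%.

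Genes known to respond to NF-kB in endothelium moved in both directions. Of 25 listed 19 could be tested, of which 5 rose, 3 fell and 11 did not pass, or 42.1% called against 45.2% of all genes. Sele, the endothelial adhesion molecule E-selectin, had 8.48, 14.1 and 9.91 CPM in controls and 93.0, 80.7, 22.4 and 32.5 CPM in KO 1 to 4 (log2 fold change 2.40, adjusted p = 0.00432). The cytokine gene Lif rose 15.4-fold from 0.398 ± 0.233 to 6.14 ± 2.50 CPM, the chemokine gene Cxcl1 2.41-fold to 47.1 ± 15.7 CPM, and Nfkbid, a further nuclear IkB protein, 3.49-fold to 46.9 ± 27.9 CPM (SD, n = 3 and 4). Sod2, mitochondrial superoxide dismutase, fell 1.34-fold from 42.7 ± 1.20 to 31.7 ± 2.13 CPM. The adhesion genes Icam1 and Vcam1 were not called at 159 and 162 CPM and at 89.5 and 110.2 CPM (adjusted p = 0.925 and 0.563). Falls in this list numbered 1 without control 2, KO 2 or KO 4, and with library totals 8 genes rose and the fall of Sod2 was no longer called (adjusted p = 0.0907). Of all genes, the fits without control 2, KO 2 and KO 4 called 31%, 40.5% and 36.8%, and library totals called 53.8%.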

How the data were processed

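The authors deposited raw read counts per Ensembl gene, not normalized. STAR 2.7.6a, FastQC 0.11.5 and build GRCm38 are named, per the submitters' processing notes; no source used here gives the counting tool, annotation, strand setting or filters. Per the labels' protocols, an unstranded or a stranded TruSeq kit was used, so antisense and overlapping genes are uncertain. Symbols matched 52403 of 52636 IDs. Counts were analysed in R 4.3.3 with edgeR 4.0.16: filterByExpr (minimum count 10, total 15), TMM factors of 0.877 to 1.135, and a quasi-likelihood F-test of KO against control with no covariate, adjusted over 15512 genes. SE was taken as |log2 fold change|/√F. Alternatives used DESeq2 1.42.0 and limma 3.58.1. All members were named, with every library's value for changes of at least 2-fold, the most abundant genes per length, subunits and feedback genes, and up to 5 called genes per further list. Members and lists were chosen with earlier results of these data known. The limit of 3 counts covers counting error only, whereas each SE includes the spread between libraries. Tested on simulated counts of 15512 genes for this comparison, edgeR called 83 of 100 genes given a 2-fold change and 96 of 100 given a 4-fold one. Unchanged genes made up 5.79% of its calls, 20.2% of DESeq2's and 6.35% of limma-voom's. The changed genes were drawn from well-counted genes only and were a far smaller share than is called here. Recovery of weakly expressed members was therefore not tested. Libraries of 1 group differed beyond sampling noise in every pair (chi-square over its degrees of freedom 13.5 to 106).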

Additional observations from a re-analysis of the deposited data

Results flagged for a closer look

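Among the 4 KO libraries, single values stood apart by the gap to the next library relative to the whole range, past Dixon's critical value. Chance passes this in about 1 of 20 groups, and 4 of 78 values checked passed. Tnfrsf23 was highest in KO 3, at 23.8 CPM, and Tnfrsf1b lowest in KO 3, at 2.18 CPM. The summed level of the macrophage markers was highest in KO 2, at 197 CPM. The summed level of the 24 genes between receptors and NF-kB was lowest in KO 4, at 1785 CPM.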

How the results depend on the processing

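Of the 22 called members 13 kept their direction and call in all 19 alternatives, 2 of which were added after the data were seen: Tnf, Tnfsf9, Tnfsf10, Tnfsf12, Tnfrsf10b, Tnfrsf12a, Tnfrsf14, Tnfrsf25, Tnfrsf26, Traf1, Traf5, Traf7 and Tnfaip2. Ligand counts were 2 rises and 2 falls in each of the 19. With library totals 22 members rose and 5 fell, 7 feedback genes rose and 0 fell, 7 TRAF, subunit and other TNFAIP genes rose and 1 fell (4 and 3 on the TMM scale), 10 other pathway genes rose and 5 fell, and 8 NF-kB-responsive genes rose and 0 fell. With upper-quartile factors 5 feedback genes rose and 0 fell, and 8 other pathway genes rose and 7 fell. With no filter 4 feedback genes rose and 7 other pathway genes fell. With limma-voom 3 receptors rose. In lane 5 alone 0 feedback genes fell. The fit with a replicate block, over replicates 1 to 3, gave 4 member falls, 3 receptor rises, 0 feedback falls, 0 falls of TRAF, subunit and other TNFAIP genes, 6 pathway falls, and 8 rises and 1 fall of NF-kB-responsive genes. Same-numbered libraries deviated together at r of -0.0133, 0.162 and 0.0673, and differently numbered ones at r of -0.176 to 0.0781. So few pairs cannot decide whether the numbers pair the samples. Leaving out single libraries gave 9 to 15 member rises and 5 to 10 falls, 3 to 4 receptor rises, 0 to 5 feedback rises and 0 to 1 falls, 0 to 4 falls of TRAF, subunit and other TNFAIP genes, 6 to 14 pathway falls and 1 to 3 NF-kB-responsive falls. Without KO 1 and KO 2 together 10 members rose and 7 fell, with 0 feedback rises, 0 feedback falls and 6 pathway falls. Without KO 1 and KO 4 together, the libraries highest in hepatocyte markers, 10 members rose and 5 fell, with 3 receptor rises, 1 feedback rise, 0 feedback falls and 0 falls of TRAF, subunit and other TNFAIP genes. The share of all genes called moved too, from 45.2% in the main fit. It was 53.8% with library totals, 48.3% with upper-quartile factors, 23.5% with no filter and 43.8% with limma-voom. In lane 5 alone it was 43.6%, and with the replicate block 33.5%. Leaving out single libraries gave 31% to 50.6%. Without KO 1 and KO 2 it was 30%, and without KO 1 and KO 4 30.2%. The cause of these shifts was not tested.

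Signs that changed belong to members not called on the TMM scale. With library totals the log2 fold changes were 0.0881 for Nfkb1, 0.188 for Nfkb2, 0.244 for Rela, 0.0317 for Relb, 0.104 for Nfkbie and 0.187 for Tnfrsf22, and with upper-quartile factors 0.0482 for Nfkb2, 0.106 for Rela and 0.0479 for Tnfrsf22. Traf3 was at -0.0149 with DESeq2 size factors or the DESeq2 test, -0.00182 with the stricter filter, -0.00424 with lane as covariate, -0.0371 in lane 5 and -0.0777 to 0.139 over fits leaving out 1 library, negative without control 1 (-0.0777), control 3 (-0.0396), KO 1 (-0.0321) or KO 2 (-0.0216). Rela was at 0.0289 and Tnfrsf4 at -0.0630 with the replicate block, and leaving out 1 library gave -0.0595 to 0.0295 for Rela and -0.0587 to 0.2905 for Tnfrsf4, with the sign changed without KO 4. Tnfrsf23 was at -0.129 in lane 5 alone and -0.127 to 0.147 leaving out 1 library, negative without KO 3. Without KO 1 and KO 2, Traf3 was at -0.088 and Nfkbib at -0.0107, and without KO 1 and KO 4, Rela was at 0.0117, Traf3 at -0.0154 and Tnfrsf22 at 0.0050.

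Depth limits the weakly expressed members: Tnfrsf13b, Tnfrsf21, Tnfaip8 and Tnfrsf4 had 202 to 369 reads in all, and none of the 13 genes under the read minimum was tested.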

Other observations

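Ratios of members within a library do not depend on the scaling between libraries. The ratios here, per length, were chosen after the values were seen and carry no test. Tnf over Nfkbia was 0.0128, 0.00967 and 0.00909 in controls 1 to 3 and 0.123, 0.0713, 0.0334 and 0.0612 in KO 1 to 4, so the cytokine gene was higher relative to its feedback gene in every KO library. Tnf over its receptor gene Tnfrsf1a was 0.0105 to 0.0132 in controls and 0.0609 to 0.422 in the KO. The receptor gene Tnfrsf12a over its ligand gene Tnfsf12 was 0.0384 to 0.0432 in controls and 0.101 to 0.362 in the KO. Tnfrsf10b over its ligand gene Tnfsf10 was 0.0122 to 0.0156 and 0.0270 to 0.0778. Nfkbia over Rela, an inhibitor over its target subunit, was 4.74 to 5.70 in controls and 6.35 to 8.23 in the KO. None of these 5 ratios overlapped between the groups. For Tnf over Tnfrsf1a, Tnfrsf12a over Tnfsf12 and Tnfrsf10b over Tnfsf10 this follows from the values of the genes themselves. In these pairs every KO library was above the controls for the first gene and below them for the second.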
